A study of Homo sapiens with 12 samples.

Results

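WNT pathway genes were examined in 2 human breast cancer cell lines, HCC70 and MDA-MB-231, which the submitters call basal-like. The 50 members, of 51838 genes in the count table, were picked out by a rule on gene symbols. They are the 19 WNT ligands, the 10 Frizzled receptors with the co-receptors LRP5 and LRP6, and the 4 R-spondins. The others are the receptor ubiquitin ligases ZNRF3 and RNF43, 9 secreted inhibitors (DKK1 to DKK4, SFRP1, SFRP2, SFRP4, SFRP5 and WIF1), and AXIN2, NKD1, LEF1 and TCF7. Each line was given 100 nM dexamethasone, a synthetic glucocorticoid that activates the glucocorticoid receptor, or the same volume of ethanol (vehicle) for 4 h. There were 3 libraries for each line and treatment, and 12 altogether. The stated purpose of the study was to find genes under the control of the glucocorticoid receptor and of STAT3. The medium was RPMI for HCC70 and DMEM for MDA-MB-231, and a difference of line cannot be told apart from one of medium. Whether the replicates are separate cultures is not stated, and the p-values therefore measure only how far these libraries spread, which may be technical.

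WNT proteins are secreted lipid-modified ligands. In the canonical branch they join a Frizzled receptor to LRP5 or LRP6, which spares beta-catenin from degradation and lets it act with LEF1 or a TCF protein on target genes. Dickkopf proteins such as DKK1 bind LRP5 and LRP6, and SFRP proteins and WIF1 bind the ligands themselves. R-spondins raise the amount of receptor at the cell surface by holding back ZNRF3 and RNF43, which send Frizzled proteins for degradation. AXIN2, NKD1, ZNRF3, RNF43 and DKK1 are themselves known targets of the pathway and act as negative feedback. In breast, WNT signalling is known for its part in mammary stem cells and in basal-like tumours.

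Total gene counts ran from 106345287 to 123218973 per library. Levels are given as CPM (counts per 1e6, scaled by TMM), and the limit that a group's count of 0 allows (3 counts) corresponds to 0.00782 to 0.00898 CPM, for counting error only. Of the members, 37 passed the filter on low counts and were tested, and 29 reached a mean of 1 CPM in at least 1 group. The 13 that were not tested were WNT1, WNT2, WNT3A, WNT7A, WNT8A, WNT16, RSPO2, RSPO3, RSPO4, DKK2, DKK4, SFRP2 and WIF1, and WNT8A and DKK4 had 0 counts in all 12 libraries. The glucocorticoid targets FKBP5, TSC22D3 and PER1 rose in both lines, FKBP5 by 6.2-fold in HCC70 and 19.9-fold in MDA-MB-231. Basal epithelial markers summed to 3766 to 4764 CPM in HCC70 and 434 to 552 CPM in MDA-MB-231. In MDA-MB-231, which is also labelled basal-like, DSG3 had 0 counts and KRT14 and TP63 were under 1 CPM. TP63 was also under 1 CPM in HCC70 with dexamethasone. EGFR, on the same list, made up most of the MDA-MB-231 sum and stood at a like level in the 2 lines in vehicle. Luminal epithelial markers summed to 4398 to 6429 CPM in HCC70 and 1710 to 2104 CPM in MDA-MB-231. Mesenchymal markers summed to 349 to 418 CPM in HCC70 and 2816 to 3350 CPM in MDA-MB-231. Fibroblast markers summed to 65.75 to 109.5 CPM in HCC70, where LUM and DCN had 0 counts, and to 14.05 to 41.02 CPM in MDA-MB-231. Immune markers summed to 36 to 45.81 CPM in HCC70 and at most 1.071 CPM in MDA-MB-231, and endothelial markers to at most 0.92 CPM in either line. The MDA-MB-231 libraries vehicle 1 and dexamethasone 2 stood apart from their groups in how counts varied with GC content, as given with the GC values, and results are also given without them.

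In MDA-MB-231 dexamethasone raised DKK1 and AXIN2 and lowered 11 ligands and receptors. Tested by edgeR's quasi-likelihood test with Benjamini-Hochberg adjustment over all 28141 tested genes, 2 members rose, where 6.65% of all tested genes rose. Among the 37 tested members 11 fell (29.7%), where 7.96% of all tested genes fell. The members were chosen with earlier results of these data known, so this excess is not independent evidence about the pathway. The fallen members were the ligands WNT9A, WNT7B, WNT3 and WNT5B, the receptors FZD8, FZD7, FZD2, FZD1 and FZD4, and the co-receptors LRP5 and LRP6. Of the 3 tested fibroblast markers, COL1A1 (1.94-fold) and PDGFRB (1.67-fold) also fell in MDA-MB-231 (edgeR adjusted p = 0.0221 and 0.0222), and their part in the result was not tested. The median log2 fold change of the tested members was -0.29, against -0.01 over all tested genes. In HCC70 1 member rose, WNT9A, where 2.55% of all tested genes rose, and 0 fell, where 1.4% of all genes fell. DESeq2 and limma voom each called 1 member lower in HCC70, WNT5A. The HCC70 median was 0.10, against -0.01 over all genes. At an unadjusted p under 0.05 in edgeR the counts of members were 11 in HCC70 and 15 in MDA-MB-231, in either direction, where 18.3% and 30.2% of all tested genes had such a p. In bulk RNA a change in the share of cells that express a gene cannot be told apart from a change in RNA per cell.

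**Figure D1:**
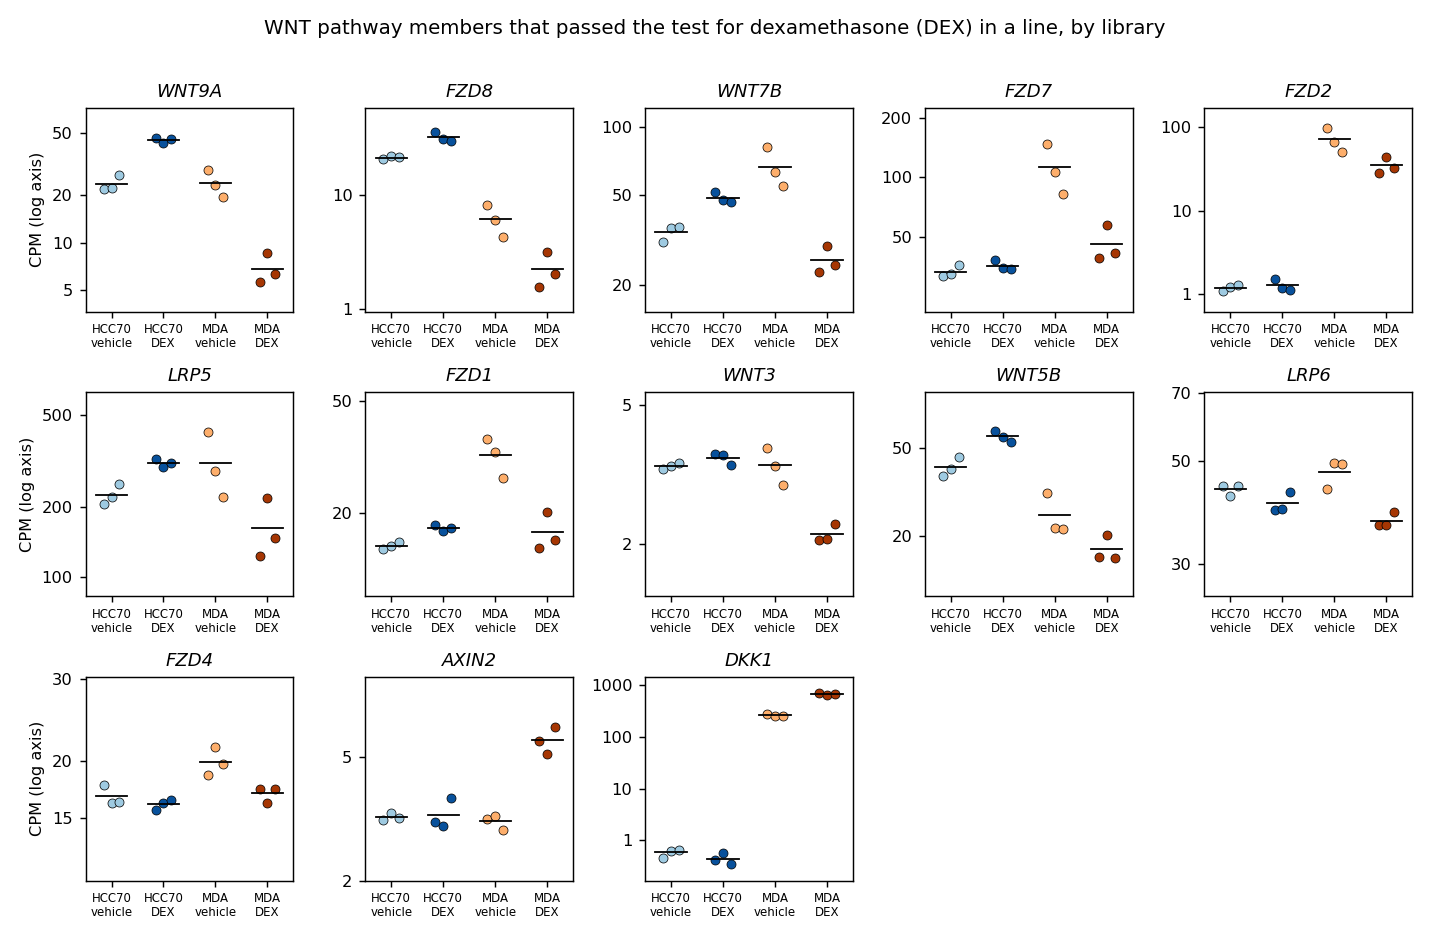
CPM (log axis) of the 13 members that passed the test for dexamethasone in at least 1 line, with 1 point per library and a bar at the mean of the 3 libraries of each group. WNT9A is higher with dexamethasone in HCC70 and lower in MDA-MB-231. DKK1 and AXIN2 are higher with dexamethasone in MDA-MB-231, where the other 10 are lower, and their HCC70 groups overlap.

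DKK1, the secreted antagonist of LRP5 and LRP6, had the highest level per length of all members in MDA-MB-231. It stood at 277, 256 and 260 CPM in vehicle and at 720, 642 and 698 CPM with dexamethasone. The lowest treated library was thus well above the highest vehicle library. The log2 fold change was 1.38 ± 0.10 (SE, n = 3 libraries per group; edgeR adjusted p = 3.87e-07), a rise of 2.6-fold. In HCC70 DKK1 was under 1 CPM in every library, at 0.461, 0.63 and 0.644 CPM in vehicle and 0.42, 0.555 and 0.339 CPM with dexamethasone, and these groups overlapped. DKK1 shares exon sequence with the antisense gene PRKG1-AS1, and the libraries did not keep strand, so reads from the shared stretch cannot be told apart.

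AXIN2, a scaffold of the beta-catenin destruction complex and a common readout of canonical signalling, rose beside DKK1 in MDA-MB-231. Its vehicle libraries were at 3.16, 3.22 and 2.91 CPM and its treated libraries at 5.63, 5.11 and 6.21 CPM, with no overlap. The log2 fold change was 0.87 ± 0.10 (edgeR adjusted p = 4.77e-05), or 1.82-fold. In HCC70 the same gene stood at 3.12, 3.3 and 3.17 CPM in vehicle and 3.09, 2.99 and 3.67 CPM with dexamethasone, a log2 fold change of 0.02 ± 0.11. The 2 lines therefore had like vehicle levels of AXIN2 and differed with dexamethasone. AXIN2 shares exon sequence with the gene AC004805.1 on the same strand, and their reads there cannot be told apart. Both the DKK1 and the AXIN2 call in MDA-MB-231 were kept in all 24 alternative settings.

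The ligand WNT9A moved in opposite directions in the 2 lines. In HCC70 its vehicle libraries were at 22, 22.2 and 27.1 CPM and its treated libraries at 46.5, 43.3 and 45.6 CPM. Every treated library was above every vehicle library, and the log2 fold change was 0.93 ± 0.16 (edgeR adjusted p = 0.00865), or 1.9-fold. In MDA-MB-231 the levels were 29.2, 23.2 and 19.5 CPM in vehicle and 5.65, 8.53 and 6.3 CPM with dexamethasone. There the groups did not overlap either, and the log2 fold change was -1.81 ± 0.17 (edgeR adjusted p = 2.35e-05), 3.51-fold lower. The vehicle levels of the 2 lines overlapped (log2 difference -0.01 ± 0.16). The call in HCC70 was lost without HCC70 vehicle 1 (0.87, edgeR adjusted p = 0.0586) or vehicle 2 (0.88, edgeR adjusted p = 0.0529).

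The stretches of 250 bases before the RefSeq starts of WNT9A, FZD8 and DKK1 are shown because these are the members with the largest changes that had an entry in the promoter table. WNT7B and FZD7 had no entry. The sequences are from RefSeq (GRCh38.p14), 5' to 3' in the direction of the gene, at chr1:227947933-227948182 (minus strand), chr10:35642297-35642546 (minus strand) and chr10:52314031-52314280 (plus strand). Capitals mark CTTTGA, the core of TCF/LEF sites, on either strand.
WNT9A: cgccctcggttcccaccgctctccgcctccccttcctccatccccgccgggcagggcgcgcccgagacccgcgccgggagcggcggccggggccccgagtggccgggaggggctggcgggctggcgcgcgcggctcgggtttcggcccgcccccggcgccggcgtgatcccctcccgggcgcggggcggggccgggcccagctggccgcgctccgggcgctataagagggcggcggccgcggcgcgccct
FZD8: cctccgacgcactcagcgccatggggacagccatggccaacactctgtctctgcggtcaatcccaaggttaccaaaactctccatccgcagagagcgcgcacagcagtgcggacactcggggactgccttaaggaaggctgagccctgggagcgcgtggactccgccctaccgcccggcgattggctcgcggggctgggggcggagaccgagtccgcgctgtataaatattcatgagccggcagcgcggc
DKK1: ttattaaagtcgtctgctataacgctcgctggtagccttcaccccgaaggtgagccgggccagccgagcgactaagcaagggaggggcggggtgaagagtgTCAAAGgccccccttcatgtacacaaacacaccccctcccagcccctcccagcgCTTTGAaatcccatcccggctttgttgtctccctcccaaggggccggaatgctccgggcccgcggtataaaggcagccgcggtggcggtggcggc
The stretch before WNT9A is 84.4% G or C and has 44 CpG dinucleotides. Those before FZD8 and DKK1 are 65.2% and 62.8% G or C, with 24 and 18 CpG. The median over all starts in the table is 58%, and over the starts of members 69.8%. The motif shares below were not adjusted for this difference. DKK1 has 2 CTTTGA matches, 1 on the reverse strand with its first base at -149 and 1 on the forward strand at -95, counted back from the start. Among 38 starts of the 33 members with an entry, DKK1 had the only CTTTGA match (2.63%), against 11.2% of all 35116 starts. AGAACA, the half-site of the glucocorticoid receptor, was searched on both strands and was in 5 of the 38 starts (13.2%), those of LEF1, RNF43, TCF7, WIF1 and WNT8B, against 12.4% of all starts. The full palindrome, AGAACA and TGTTCT with any 3 bases between them, was in 0 of the members' starts and in 0.00285% of all. These are matches of letters in a short window, not evidence of binding.

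Of the 13 tested ligands, 4 fell in MDA-MB-231, where 7.96% of all tested genes fell, and 9 did not pass. WNT7B, a canonical ligand expressed in breast epithelium, stood at 81.2, 63.5 and 54.9 CPM in vehicle and at 22.8, 29.8 and 24.5 CPM with dexamethasone. The groups were apart, and the log2 fold change was -1.37 ± 0.14 (edgeR adjusted p = 2.58e-05). WNT3 went from 3.76, 3.35 and 2.96 CPM to 2.05, 2.07 and 2.29 CPM, a log2 fold change of -0.65 ± 0.10 (edgeR adjusted p = 0.000581). WNT5B, mostly known as a non-canonical ligand, went from 31.1, 21.6 and 21.4 CPM to 15.9, 20.1 and 15.9 CPM. Here vehicle 1 stood well above the other 2 vehicle libraries, and dexamethasone 2 came close to them. The log2 fold change was -0.51 ± 0.15 (edgeR adjusted p = 0.0376), and -0.31 (edgeR adjusted p = 0.0791) without vehicle 1. The WNT5B call was also lost without HCC70 vehicle 2, each of HCC70 dexamethasone 2 and 3, or MDA-MB-231 dexamethasone 1 or 3, with edgeR adjusted p from 0.0526 to 0.146. WNT10B, a canonical ligand, was at 2.02 to 2.89 CPM in vehicle and 1.63 to 2.3 CPM with dexamethasone, and did not pass (log2 fold change -0.37 ± 0.24). Summed over all WNT genes, the level in MDA-MB-231 was 103 to 150 CPM in vehicle and 49.4 to 64.4 CPM with dexamethasone.

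Receptors made up most of the falls: 7 of 12 tested members of this role fell in MDA-MB-231, where 7.96% of all tested genes fell. Of these 12, 0 rose. The role was counted among members chosen with earlier results of these data known. FZD7, a receptor linked to canonical signalling in basal-like tumours, was at 148, 107 and 82.3 CPM in vehicle and 39.3, 57.6 and 41.7 CPM with dexamethasone. Its log2 fold change was -1.28 ± 0.20 (edgeR adjusted p = 0.0018). FZD8 was at 8.12, 6.04 and 4.26 CPM in vehicle and 1.55, 3.15 and 2 CPM with dexamethasone (log2 fold change -1.46 ± 0.27, edgeR adjusted p = 0.00472). For both receptors the highest treated library, dexamethasone 2, was below the lowest vehicle library, vehicle 3. FZD2, a receptor also used by non-canonical ligands, was at 95.6, 65 and 50 CPM against 28.3, 42.9 and 32.3 CPM (log2 fold change -1.02 ± 0.22, edgeR adjusted p = 0.0136). FZD1 was at 36.8, 33.2 and 26.6 CPM against 15.1, 20.3 and 16.1 CPM (log2 fold change -0.91 ± 0.12, edgeR adjusted p = 0.000121). In these 4 receptors vehicle 1 was the highest vehicle library and dexamethasone 2 the highest treated library.

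The remaining receptor changes in MDA-MB-231 were smaller or rested on few libraries. LRP5 had 419, 287 and 220.3 CPM in vehicle and 124, 219.8 and 148 CPM with dexamethasone, so vehicle 3 and dexamethasone 2 were nearly equal (log2 fold change -0.92 ± 0.25, edgeR adjusted p = 0.0369). LRP6, the other co-receptor, went from 43.4, 49.5 and 49.3 CPM to 36.3, 36.4 and 38.8 CPM, with groups apart (-0.35 ± 0.06, edgeR adjusted p = 0.00201). FZD4 went from 18.6, 21.4 and 19.6 CPM to 17.4, 16.2 and 17.3 CPM (-0.23 ± 0.07, edgeR adjusted p = 0.0398), a call lost in 15 of 24 settings. Those include the omission of HCC70 vehicle 2, any HCC70 dexamethasone library, MDA-MB-231 vehicle 2 or any MDA-MB-231 dexamethasone library. FZD4 shares exon sequence with PRSS23 on the other strand. The LRP5 call was lost in 11 of 24 settings, among them without MDA-MB-231 vehicle 1 (-0.63, edgeR adjusted p = 0.11) or vehicle 2, dexamethasone 1 or 3, or, in HCC70, vehicle 1 or 2 and dexamethasone 1 or 3. Leaving out either of 2 treated libraries, dexamethasone 1 or 3, ended the FZD2 call (edgeR adjusted p of 0.059 and 0.0586). With MDA-MB-231 fitted alone the calls of FZD2 (edgeR adjusted p = 0.0997), FZD8 (0.0642), LRP5, FZD4 and WNT5B were lost. FZD5 and FZD6 did not pass. FZD6 was at 40.2 to 48.3 CPM in vehicle and 47.2 to 51.1 CPM with dexamethasone. FZD5 was at 11.7 to 16.5 CPM and 10.4 to 15.1 CPM. All FZD genes together summed to 247 to 369 CPM in vehicle and 168 to 207 CPM with dexamethasone.

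The R-spondin, ligase and transcription factor members did not pass in either line in the main fit of all 12 libraries. RSPO1, the 1 tested R-spondin, was at 20.9, 22.1 and 30.9 CPM in MDA-MB-231 vehicle and 28, 22.7 and 28.4 CPM with dexamethasone. ZNRF3 was at 18.8, 15.2 and 13.3 CPM against 11, 15 and 12.7 CPM there (log2 fold change -0.29 ± 0.12, edgeR adjusted p = 0.123). RNF43 differed by less, at 6.8 to 8.79 CPM against 6.42 to 7.55 CPM. TCF7, a transcription factor of the pathway, was at 14 to 15.9 CPM against 13.2 to 15.8 CPM, and LEF1 at 2.12 to 2.52 CPM against 2.32 to 2.74 CPM. Among the 5 tested secreted inhibitors DKK1 alone passed. DKK3 was at 1.23, 1.75 and 1.02 CPM in vehicle and 0.888, 1.12 and 0.944 CPM with dexamethasone, and SFRP1, SFRP4 and SFRP5 stayed under 1 CPM in every library.

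**Figure D2:**
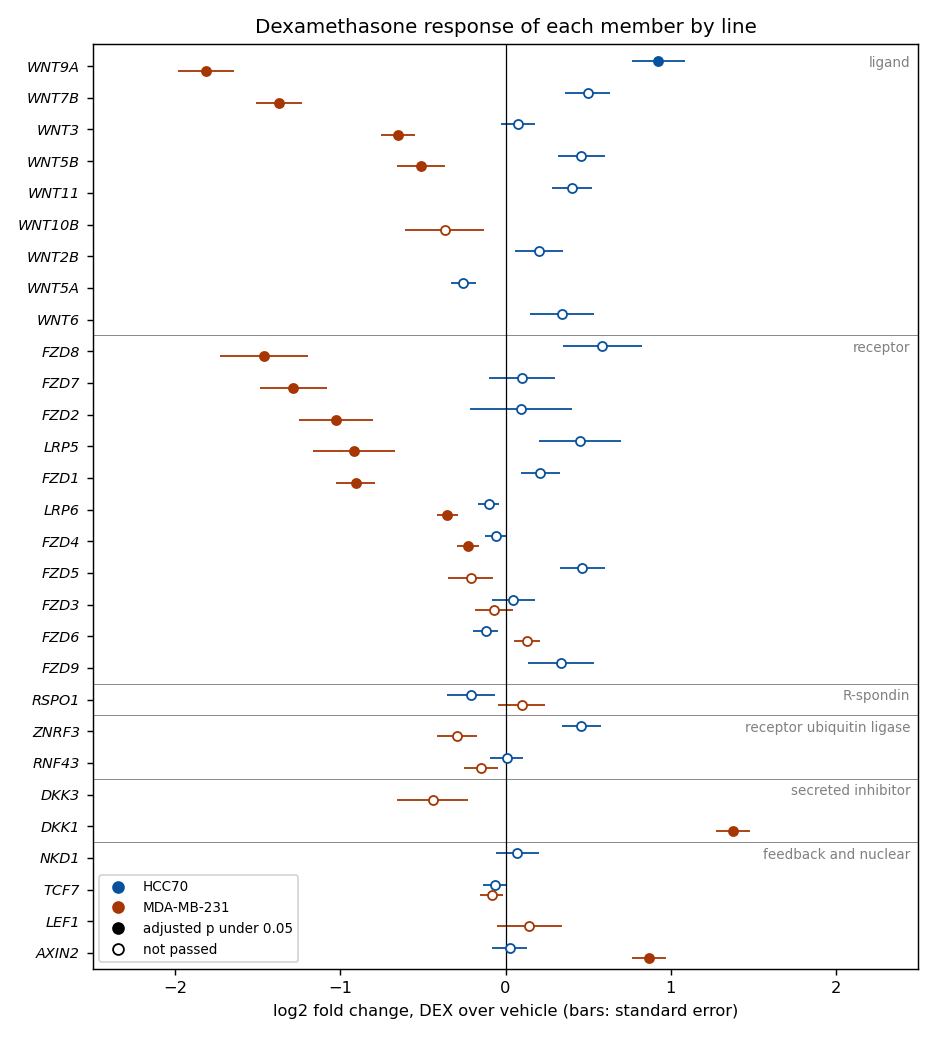
Log2 fold change of dexamethasone over vehicle (horizontal axis; bars are standard errors, n = 3 libraries per group) for members of at least 1 CPM, 25 in HCC70 and 23 in MDA-MB-231; a gene under 1 CPM in both groups of a line has no point for that line. Filled points passed the adjusted p threshold of 0.05. In MDA-MB-231 the filled points lie left of 0 for 11 members and right of 0 for DKK1 and AXIN2.

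In HCC70 WNT9A alone passed in the fit of all 12 libraries. Of the tested members, 9 had all treated libraries above all vehicle libraries and 2 had them below, where 17.1% and 15.3% of all tested genes did. WNT7B was at 30.9, 35.7 and 36.1 CPM in vehicle and 51.3, 47.3 and 46.4 CPM with dexamethasone (log2 fold change 0.50 ± 0.14, edgeR adjusted p = 0.0707). FZD8 was at 20.6, 21.8 and 21.3 CPM against 35.4, 30.8 and 29.4 CPM (0.59 ± 0.24, edgeR adjusted p = 0.231). ZNRF3, the ligase that removes Frizzled proteins, was at 16.2, 17.3 and 17.4 CPM against 23.6, 23.4 and 23 CPM (0.46 ± 0.12, edgeR adjusted p = 0.0509). LRP5 was at 207, 221 and 252 CPM against 322, 297 and 310 CPM (0.45 ± 0.25, edgeR adjusted p = 0.363). WNT5A, which signals outside the beta-catenin branch, was lower in each treated library, at 14.6, 14.2 and 13.8 CPM against 11.8, 12.2 and 11.6 CPM (-0.25 ± 0.07, edgeR adjusted p = 0.0833). Without the 2 MDA-MB-231 libraries that stood apart, which also enter the estimate of spread, 9 members passed in HCC70 (8 higher and WNT5A lower), where 8.86% of all genes were then called higher and 4.67% lower. With HCC70 fitted alone 10 members did (9 higher and WNT5A lower), where 11.9% of all genes were called higher and 7.13% lower. The summed FZD level in HCC70 was 152 to 156 CPM in vehicle and 165 to 177 CPM with dexamethasone, and the summed WNT level 130 to 150 CPM and 189 to 203 CPM.

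The difference of the responses was tested in the same model as an interaction. It was positive, meaning a higher fold change in HCC70, for 10 of the 37 tested members (27%), where 6.96% of all tested genes were called positive. It was negative for 2, DKK1 and AXIN2, where 5.09% of all genes were. These shares too are of members chosen with earlier results of these data known. The largest positive difference was that of WNT9A (2.74 ± 0.24 on the log2 scale, edgeR adjusted p = 2.8e-05). FZD8, WNT7B and FZD7 followed with 2.05, 1.87 and 1.38, then LRP5 with 1.37 and FZD1 with 1.12. WNT5B, ZNRF3, WNT3 and FZD5 had smaller positive differences, from 0.67 to 0.97. DKK1 differed by -1.78 and AXIN2 by -0.84. FZD5 and ZNRF3 passed in neither line in the main fit of all 12 libraries. Their call here rests on higher values in HCC70 beside lower values in MDA-MB-231. With HCC70 fitted alone both were called higher with dexamethasone. FZD5 stood at 13, 13.2 and 12.6 CPM in HCC70 vehicle and at 18.8, 17.8 and 16.9 CPM with dexamethasone. The FZD5 call was lost in 12 of 23 settings, including the omission of any library but MDA-MB-231 vehicle 3 or dexamethasone 2. The LRP5 call was lost in 11, including the omission of any library but HCC70 vehicle 3, MDA-MB-231 vehicle 3 or dexamethasone 2.

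GC content moved with the responses. Over 29 members the Spearman correlation of GC content with the log2 fold change was 0.566 in HCC70 and -0.332 in MDA-MB-231, and over 15527 genes 0.492 and -0.441. These are correlations across genes, which share the libraries and are not independent replicates. Correlation of GC content with each library's deviation from its line's mean ran from -0.589 to -0.144 in HCC70 vehicle and from 0.347 to 0.489 with dexamethasone. In MDA-MB-231 it was 0.666, 0.164 and -0.222 in vehicle and -0.508, 0.254 and -0.487 with dexamethasone, so vehicle 1 and dexamethasone 2 stand apart from their groups. With an offset that removes GC and length trends from each library, the correlation over members fell to 0.195 and -0.162.

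With that offset the same 13 members passed in MDA-MB-231, with smaller values for those of high GC content. Over all tested genes 2632 were then called higher and 2377 lower in that line. WNT9A was at -1.56, FZD8 at -1.03 and WNT7B at -0.97, while FZD7 (-1.23) and FZD1 (-0.89) moved little. FZD2 was at -0.61, LRP5 at -0.51 and WNT5B at -0.27, each more than 1.5 times smaller than without the offset. DKK1 was at 1.27 and AXIN2 at 0.96. In HCC70 5 members passed with the offset, WNT9A (0.73), FZD5, WNT5B, WNT7B and ZNRF3, all higher with dexamethasone. Over all tested genes 926 were then called higher and 966 lower in HCC70. FZD8 and LRP5, at 0.27 and 0.15, did not pass with the offset. The difference between the lines was also smaller with the offset, at 1.3 for FZD8, 1.17 for WNT7B, 0.66 for LRP5 and 0.55 for WNT5B. Further parts that GC content may have in these results were not tested. Without the 2 libraries that stood apart the same 13 members passed in MDA-MB-231, where 2479 of all genes were called higher and 3306 lower.

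**Figure D3:**
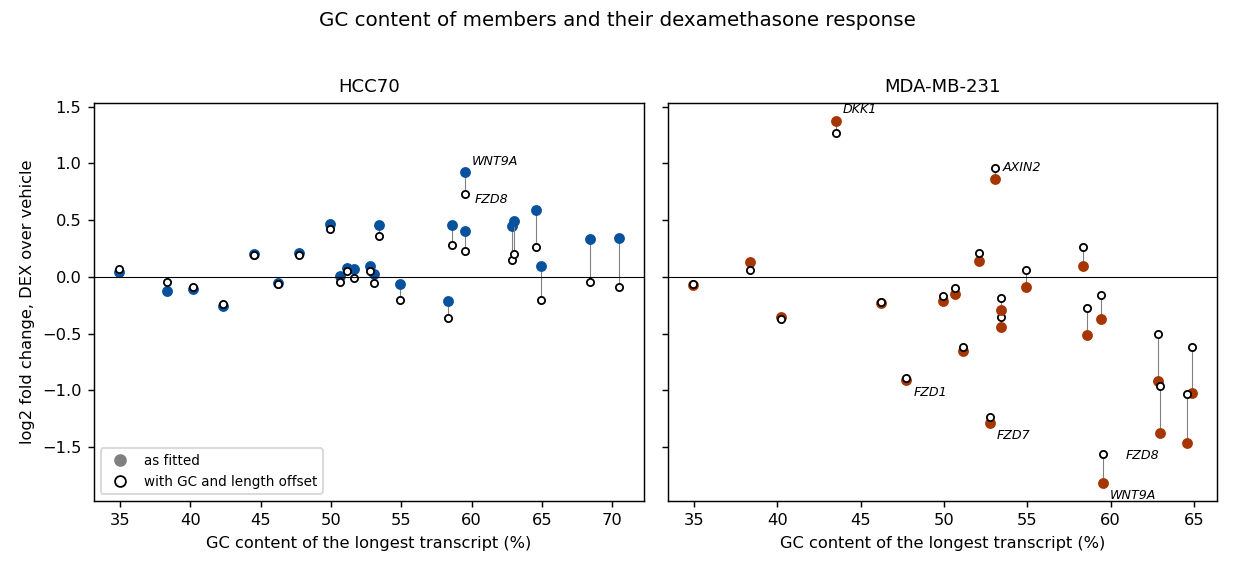
GC content of the longest transcript (horizontal axis, percent) against the log2 fold change of dexamethasone over vehicle for the 25 members of at least 1 CPM in HCC70 and the 23 in MDA-MB-231. Filled points are as fitted, open points with the GC and length offset, and a line joins both values of a gene. The open points of WNT7B, FZD8, LRP5 and WNT5B lie nearer to 0 than their filled points, those of RSPO1 lie farther from 0, and WNT9A stays at 0.73 in HCC70 and -1.56 in MDA-MB-231.

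In vehicle the 2 lines held different sets of ligands, receptors and inhibitors. Of the tested members 12 were higher in HCC70, where 39.2% of all tested genes were, and 16 were higher in MDA-MB-231, where 40% of all genes were. The members' share (32.4% and 43.2%) was thus near that of all genes. Their median absolute log2 difference was 1.75, against 0.99 over all tested genes. That median includes members with 0 counts in the vehicle libraries of 1 line, among them LEF1, WNT10B, DKK3 and WNT6. Such members passed the filter through the other line, so the size of the median is not evidence about the pathway. The members were chosen with earlier results of these data known. The 5 tested secreted inhibitors (DKK1, DKK3, SFRP1, SFRP4 and SFRP5) were all higher in MDA-MB-231. DKK3, SFRP1, SFRP4 and SFRP5 had 0, 15, 0 and 0 counts over the HCC70 vehicle libraries and passed the filter through MDA-MB-231. Their direction thus followed largely from being tested, and the shared direction is not evidence about inhibitors as a role. DKK2, with 10 counts in HCC70 vehicle and 0 in MDA-MB-231 vehicle, was not tested. DKK1 differed by 457-fold (log2 difference -8.84 ± 0.15, edgeR adjusted p = 2.18e-15). DKK3 had 0 counts in all 3 HCC70 vehicle libraries and was at least 154-fold higher in MDA-MB-231, taking 3 counts over the group as the floor, and SFRP4 at least 76.3-fold. LEF1 (at least 271-fold) and WNT10B (at least 285-fold) likewise had 0 counts in HCC70 vehicle.

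HCC70 held another set. WNT5A was 252-fold higher there than in MDA-MB-231, at 14.6, 14.2 and 13.8 CPM against 0.0418, 0.0547 and 0.0701 CPM. WNT11, a ligand that acts in cell polarity, was 127-fold higher, at 15.4 to 17.4 CPM. NKD1, the feedback inhibitor that binds Dishevelled, was 280-fold higher, at 10.8 to 11.7 CPM, and TCF7 was 14.7-fold higher, at 215 to 230 CPM. TCF7 was also expressed in MDA-MB-231, at 14 to 15.9 CPM, while LEF1, which binds the same DNA motif, had 0 counts in HCC70 vehicle. WNT6 (at least 151-fold) had 0 counts in MDA-MB-231 vehicle. FZD2 was 58.1-fold higher in MDA-MB-231, at 50 to 95.6 CPM against 1.09 to 1.29 CPM, and FZD9 was 79.3-fold higher in HCC70. Overlapping genes limit some of the members' values. TCF7 shares exon sequence with SKP1, WNT2B with ST7L and LEF1 with LEF1-AS1, each on the other strand. NKD1 and WNT11 share it with antisense genes, and RNF43 with SUPT4H1 on the same strand.

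Compared per length, as RPKM, the leading members also differed between the lines. In MDA-MB-231 vehicle DKK1 had 120 RPKM, LRP5 50.1 ± 16.4 (SD, n = 3), FZD2 33.2 ± 11 and FZD7 29.1 ± 8.62, and the last 3 lie within each other's spread. In HCC70 vehicle LRP5 led with 36.8 ± 3.68 RPKM, then TCF7 with 22.2 ± 0.77 and FZD6 with 12.3 ± 0.994. The most abundant ligands in HCC70 were WNT5B (9.52), WNT11 (6.9), WNT7B (6.78) and WNT9A (5.98 RPKM). In MDA-MB-231 these were WNT7B (13.2), WNT9A (6.04) and WNT5B (5.73 RPKM). RSPO1 reached 7.98 RPKM in MDA-MB-231 and 3.3 RPKM in HCC70. AXIN2, WNT3, FZD5, FZD6, LRP5, LRP6, ZNRF3, WNT9A and WNT9B did not pass between the lines. With the GC and length offset LRP5 (-0.87, edgeR adjusted p = 4.94e-08), WNT9A (-0.40, 6.05e-05) and FZD6 (0.19, 0.00267) did. LRP5 also passed without MDA-MB-231 vehicle 3 (-0.64), FZD6 without HCC70 vehicle 3 (0.20) and LRP6 without MDA-MB-231 vehicle 1 (-0.20).

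**Figure D4:**
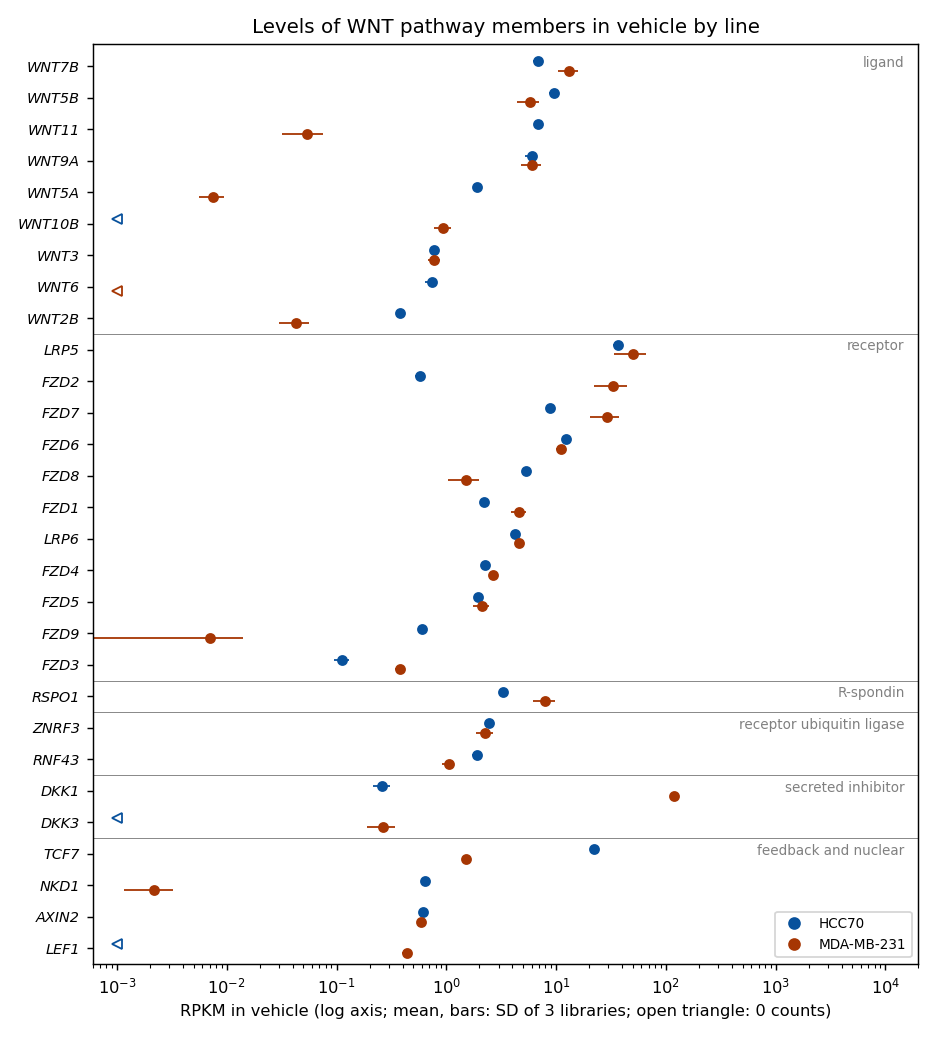
Vehicle levels in RPKM (log axis) of members of at least 1 CPM in a group, as the mean and SD of 3 libraries in HCC70 and MDA-MB-231; open triangles at the left edge mark 0 counts in all 3 libraries. DKK1 lies at 120 RPKM in MDA-MB-231 and 0.262 in HCC70, and LEF1, WNT10B and DKK3 have open triangles in HCC70.

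The other genes of the pathway were counted in 7 lists, of which 60 of 63 found genes were tested. In MDA-MB-231 6 rose and 12 fell, where 6.65% and 7.96% of all tested genes did. In HCC70 4 rose and 4 fell, where 2.55% and 1.4% of all genes did. The lists were chosen with earlier results of these data known, so these counts are not independent evidence. Of the R-spondin receptors LGR4 fell in MDA-MB-231 from 76.2 to 59.8 CPM (1.27-fold, edgeR adjusted p = 0.00472) and LGR5 from 0.407 to 0.141 CPM, though LGR5 lost its call without MDA-MB-231 vehicle 2. Among genes of the nucleus, TLE3, a corepressor that binds TCF proteins, fell from 103 to 53 CPM (1.94-fold). TLE1 went opposite ways, up 1.47-fold in HCC70 and down 1.33-fold in MDA-MB-231, and this difference passed (0.96 on the log2 scale, edgeR adjusted p = 0.000278). With the GC and length offset TLE1 was at -0.19 in MDA-MB-231 and its difference at 0.57, both still called, and the MDA-MB-231 call was lost when that line was fitted alone (edgeR adjusted p = 0.0755). BCL9, a coactivator of beta-catenin, fell 1.38-fold in MDA-MB-231. CTNNB1, the gene of beta-catenin itself, rose 1.16-fold there, from 354 to 409 CPM (edgeR adjusted p = 0.0377), and was called in 15 of 24 settings. That call was lost without HCC70 vehicle 2 or dexamethasone 2, or without MDA-MB-231 vehicle 1 or 3 or dexamethasone 1 or 3.

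Of 12 tested non-canonical receptor and planar polarity genes, 1 rose and 2 fell in HCC70 and 1 rose and 1 fell in MDA-MB-231. ROR1, a receptor for WNT5A, rose 1.31-fold in HCC70, a call lost with scaling by library size only. PRICKLE1, a planar polarity gene, fell in both lines, 1.7-fold in HCC70 and 1.74-fold in MDA-MB-231. PRICKLE2 fell 1.83-fold in HCC70 and rose 1.21-fold in MDA-MB-231. Of the list of transcriptional targets, MYC rose in both lines (1.98-fold and 1.99-fold), and BMP4 and ID2 fell in both, though BMP4 in HCC70 lost its call without vehicle 1 or 2 or dexamethasone 1 or 2. That list was put together with results of these data known and is not independent evidence of a direction. CCND1, a cyclin that many pathways regulate, rose 1.39-fold in HCC70 from 115 to 160 CPM and fell 1.57-fold in MDA-MB-231 from 679 to 434 CPM. Of the 14 tested cytoplasmic core genes CSNK1E fell and CTNNB1 rose in MDA-MB-231, and in HCC70 0 passed. With the offset CSNK1E was at -0.06 and was not called (-0.30 without it). Its call was also lost without MDA-MB-231 vehicle 1 or 2 or dexamethasone 1 or 3. Of the 4 genes on the list named secretion, NOTUM, which is not itself part of WNT export, fell in MDA-MB-231. Its log2 fold change was -2.07, a call lost in 6 of 22 settings. Those include the omission of MDA-MB-231 vehicle 1 or 2 or dexamethasone 1 or 3. Its difference of responses was 2.40, a call lost in 13 of 21 settings, and 1.58 with the GC and length offset. WLS and PORCN, which make and export WNT proteins, did not pass in either line. WLS was at 111 and 103 CPM in HCC70 and 56.9 and 56.1 CPM in MDA-MB-231. The other antagonists had 1 call, TMEM64 in MDA-MB-231, which rose 1.17-fold and was called in 11 of 24 settings.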

How the data were processed

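RNA with polyA was sequenced from 250 ng per sample by a transposase-based, non-stranded method with paired 50 bp reads, per the labels' protocols. The authors deposited raw read counts per gene as whole numbers. The submitters' processing notes name the hg19 build and the tools TopHat 1.4.1, Cufflinks 1.3.0 and bedtools, and the counter is not given in the sources used here. No coordinates come from the table. The members and gene lists were chosen with earlier results of these data known. Samples were grouped by line and treatment from the labels.

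With edgeR 4.0.16 in R 4.3.3, TMM scaling and filterByExpr (at least 10 counts) left 28141 genes. All 12 libraries entered 1 robust quasi-likelihood fit of the group means, with 8 residual degrees of freedom. Two-sided tests were made for each line, for the difference of responses and between lines in vehicle, with a Benjamini-Hochberg threshold of 0.05. Exon lengths and GC content came from GENCODE v29, a different build, and 89.8% of tested genes had a value. RPKM divides CPM by exon length. Named members were those called for dexamethasone, or with at least 1 CPM in a group; other pathway genes were up to 4 examples per list. The scripts were tested on simulated data. Replicate numbers did not pair the libraries. The alternatives are in the closing section.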

Additional observations from a re-analysis of the deposited data

Results flagged for a closer look

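The 2 lines responded differently to dexamethasone in 12 members, by the test of the difference of log2 fold changes (HCC70 minus MDA-MB-231) in edgeR, adjusted over all tested genes. The values are for WNT9A 2.74 (adjusted p = 2.8e-05), FZD8 2.05 (0.00602), WNT7B 1.87 (7.75e-05), FZD7 1.38 (0.0136), LRP5 1.37 (0.0348), FZD1 1.12 (0.000792), WNT5B 0.97 (0.0124), ZNRF3 0.75 (0.0139), WNT3 0.73 (0.00602) and FZD5 0.67 (0.0403). Negative differences were those of DKK1, -1.78 (4.97e-05), and AXIN2, -0.84 (0.00266). In WNT9A the 2 lines moved in opposite directions, and both passed. In ZNRF3 and FZD5 neither line passed in the main fit of all 12 libraries.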

How the results depend on the processing

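In HCC70, where 1 member passed, the count was 10 with HCC70 alone (28 members tested), 9 without MDA-MB-231 vehicle 1 and dexamethasone 2, 8 by DESeq2's Wald test, 5 with the GC and length offset, 4 by limma voom, 3 with upper-quartile scaling and with library size only, and 2 with DESeq2 size factors and with a strict filter of 5 CPM in 3 libraries. With the offset and a replicate block it was 3. Leaving out each library in turn gave 0 to 7, with 0 without HCC70 vehicle 1 or vehicle 2, 7 without MDA-MB-231 vehicle 1, 5 without dexamethasone 2 and 4 without vehicle 3 of that line. In MDA-MB-231, where 13 passed, fitting that line alone gave 8, and leave-one-out 9 to 15. The difference of responses (12 members) stayed within 8 to 17 in all settings. Among the members of at least 1 CPM in a group, no value that passed changed sign. In vehicle (28 members) the strict filter tested 22 members and called 16. The cause was not tested except for the strict filter, which tests fewer genes. Scaling by library size only moved the difference of responses by -0.116 on the log2 scale at the median of 29 members, and turned the split of all genes in HCC70 from 719 higher and 395 lower to 552 and 762, and in the difference from 1960 and 1431 to 1766 and 2498. Replicate numbers did not pair the libraries, with correlations of deviations between -0.507 and 0.255 for the same number. Not every library correlated best with its own number. The block gave 1 member in HCC70, 10 in MDA-MB-231, 8 for the difference and 27 in vehicle. Over all genes it gave 364 higher and 117 lower in HCC70, 1187 and 1364 in MDA-MB-231 (1870 and 2240 without it) and 841 and 639 for the difference. Of 47 values that passed among the 29 members of at least 1 CPM in a group, 37 were kept in all settings run. Of 37 values of other pathway genes that passed, 19 were, and AXIN1's difference (0.68) turned to -0.106 with the offset and -0.105 with the offset and block. With the offset 926 genes were higher and 966 lower in HCC70. WNT5B's vehicle difference was 0.73 and 0.37 with the offset. Single values of members under 1 CPM are not in the totals above. One of them, WNT4, differed by 1.21 in vehicle and lost its call with the offset (0.87, edgeR adjusted p = 0.14). Depth limited little, since 3 counts per group are below 0.01 CPM.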
